A study of Homo sapiens with 30 samples.

Results

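The question addressed here is how arsenite changed the RNA content of the TIA1 granule fraction, relative to cytosol, in cells expressing the Welander distal myopathy form of TIA1 (WDM). It was measured in 12 of the 30 libraries of the series, chosen by their sample titles, as 4 groups of 3 replicates. The groups are Cytosol_WDM_tet and SGs_WDM_tet, from cells given tetracycline alone, and Cytosol_WDM_tet_ars and SGs_WDM_tet_ars, from cells also given 0.5 mM sodium arsenite for 60 min. All 12 come from a stable derivative of HEK293 Flp-In T-REx, a human embryonic kidney line in which tetracycline switches on a transgene placed at a fixed genomic site. That transgene is GFP fused to TIA1a with the WDM mutation, and all 4 groups received tetracycline, so none lacks the inducer. The second line, built the same way with wild-type TIA1a (WT), serves below only as a comparison. The granule fraction was pelleted from lysate and pulled down through GFP. The series describes this purification for arsenite-treated cells only, so what the pull-down holds without arsenite is not specified, and that material is called the granule fraction throughout.

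Stress granules are condensates of untranslated mRNA and RNA-binding proteins that form when arsenite and other stresses block translation initiation. TIA1 is one of the proteins that nucleate them, and it binds U-rich RNA through its RRM domains and condenses through its prion-like C-terminal domain, where the Welander mutation lies. Long, poorly translated transcripts are known to accumulate in stress granules more than short, well translated ones.

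The measure is an interaction. For each gene the log2 ratio of granule over cytosol without arsenite was subtracted from the same ratio with arsenite, so a positive value is a higher granule enrichment with arsenite. Levels are CPM, counts relative to the size of each library after TMM scaling, and a gene is called where edgeR's quasi-likelihood test gives a Benjamini-Hochberg adjusted p under 0.05 over all 18141 genes tested. CPM values are shares of each library, so the amount of RNA in a fraction was not measured. In bulk extracts, fewer granule-bearing cells and less granule RNA per cell cannot be told apart. The labels do not say whether replicates were separate cultures, and p-values then measure only the spread between these libraries.

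The 12 libraries held 7971585 to 27419145 counts, and the 3 granule libraries with arsenite were the deepest. Replicates correlated with Pearson's r of 0.987 to 0.998 on the log2 CPM scale, over genes within a pair of libraries, and no pair agreed within sampling noise. Granule replicate 1 without arsenite stood apart from the other two: mitochondrial genes took 0.119% of its counts, against 0.341% and 0.42%. Results that rest on it are given with and without it. Epithelial markers KRT8, KRT18, KRT19, EPCAM and CDH1 were all counted, while of the kidney markers PAX2 (2.42 to 19.4 CPM) and WT1 (5.72 to 13.3 CPM) were counted and PAX8 had at most 2 counts in a library. The leukocyte markers PTPRC, CD3E and CD68 had at most 2. In the interaction, 1 of the 5 epithelial markers was called, CDH1 (1.16, higher), with the call kept in 10 of the 12 fits that left out a WDM library. Of the endothelial, fibroblast and skeletal muscle markers 4 had enough counts to test, and 0 were called. TIA1 itself had 0 counts in the 12 libraries, which allows up to 0.399 CPM in the shallowest (3 counts, counting error only). Its gene lies within that of C2orf42, same strand, and of 395 protein-coding genes placed so inside another gene, 83.3% had at most 3 counts over all 30 libraries, against 9.92% of 15925 without such an overlap. The transgene could therefore not be checked in this table.

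Arsenite changed the granule enrichment of 4386 genes, 24.2% of those tested. It was higher for 1390 genes (7.66%) and lower for 2996 (16.5%), by at least 1 on the log2 scale for 480 and 1367 of them. The median over all genes was -0.17. Most calls went with a difference in the granule fraction and not in cytosol. Of the 1390 genes with higher enrichment, 1052 differed with arsenite in the granule fraction alone, 119 in cytosol alone, 85 in both and 134 in neither. Of the 2996 with lower enrichment, the numbers were 2139, 326, 267 and 264. The median granule change was 0.69 for the first set and -0.74 for the second, and the median cytosol change -0.21 and 0.21, against -0.10 and 0.00 over all genes. Across all genes, arsenite raised 16.7% and lowered 25.8% in the granule fraction, and raised 7.03% and lowered 3.79% in cytosol. When each fraction was fitted on its own, an alternative chosen after seeing the data, the granule-only numbers were 963 and 1669 and those called in both fractions 204 and 393.

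Few genes crossed from one fraction to the other. Without arsenite 71.1% of all genes differed between granule fraction and cytosol, and with arsenite 72.0%. Of the genes whose enrichment fell, 1140 were granule-enriched under both conditions, 773 were granule-depleted under both, 530 went from enriched to not called, 418 from not called to depleted, and 128 from enriched to depleted. Among genes whose enrichment rose, 474 went from not called to enriched, 420 from depleted to not called, and 150 from depleted to enriched.

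**Figure D1:**
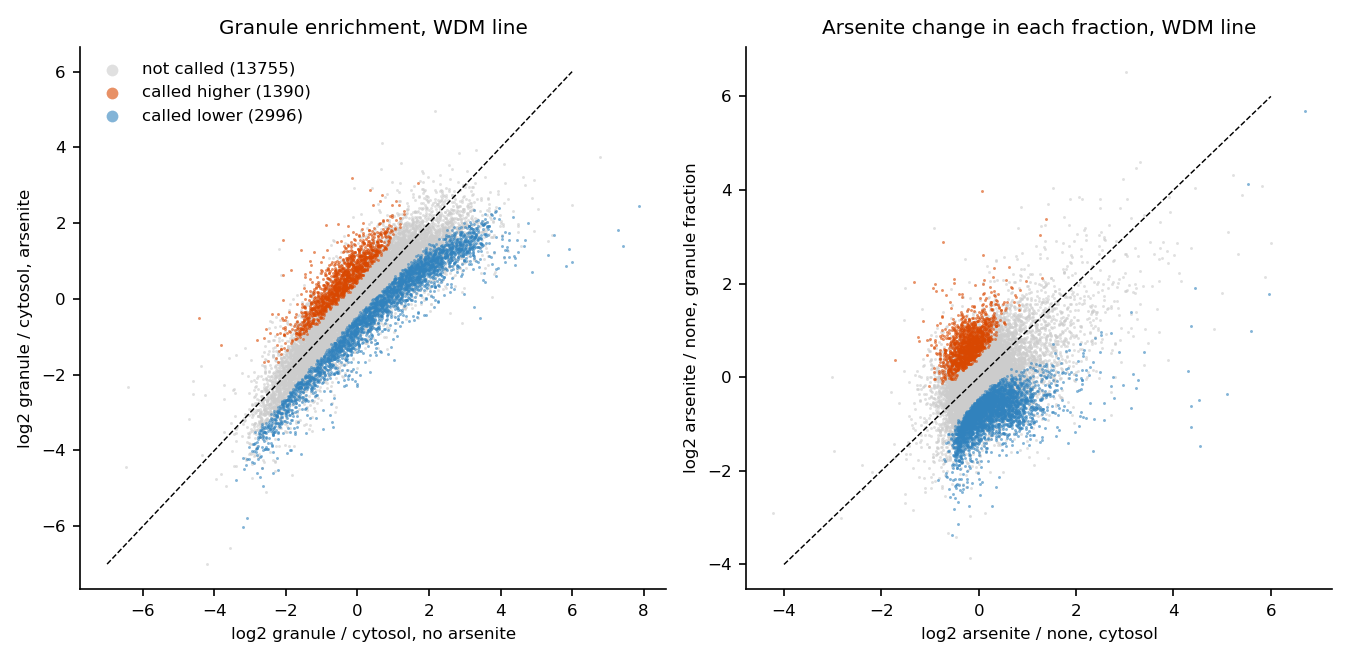
Left, log2 granule over cytosol without (x axis) and with arsenite (y axis), and right, log2 arsenite over none in cytosol (x axis) and in the granule fraction (y axis), for the 18141 genes tested in the WDM line, with the line of equality dashed. The 2996 genes with lower enrichment (blue) spread over the whole range of enrichment on the left and lie mostly below 0 on the y axis on the right, where their median is -0.74.

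Among the genes named for a loss of granule enrichment, SYNE2 had the lowest interaction. SYNE2 (ENSG00000054654, chromosome 14, 63761899 to 64226433, GRCh38) encodes nesprin-2, which ties the nucleus to actin. In the granule fraction without arsenite its 3 libraries had 1781, 4983 and 4568 CPM, and with arsenite 538, 556 and 581. In cytosol it had 419, 277 and 385 CPM without arsenite and 355, 268 and 316 with it. The granule groups did not overlap, the cytosol groups did, and replicate 1 was the low one without arsenite. The ratio of granule over cytosol was 10.5 without arsenite and 1.78 with it, an interaction of -2.56 (SE 0.366, edgeR quasi-likelihood, adjusted p 4.80e-05).

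DST, which encodes the linker protein dystonin, had 3616, 7802 and 7592 CPM in the granule fraction without arsenite and 1301, 1561 and 1366 with it. Its cytosol level lay between 502 and 758 CPM in all 6 libraries, and its interaction was -2.17. SPTBN1, encoding beta-II spectrin, fell in the granule fraction from 3865, 9070 and 7515 CPM to 954, 1185 and 1260 (interaction -2.11). The same pattern, a fall in the granule fraction with no call in cytosol, held for LMO7 (-2.07, a LIM-domain protein of cell junctions) and ASPM (-2.03, a spindle-pole protein). MACF1, the spectraplakin paralog of DST and a member of the list of long granule-rich transcripts, had an interaction of -1.94 (SE 0.38, edgeR, adjusted p 0.000641). These mRNAs stayed more abundant in the granule fraction than in cytosol with arsenite for DST (2.10-fold), SPTBN1 (2.79-fold) and MACF1 (3.14-fold), while ASPM was at 0.664-fold.

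A second set of genes moved in both fractions. KCNQ5 (chromosome 6, 72621792 to 73198853), a potassium channel gene, had 1434, 1054 and 1206 CPM in the granule fraction without arsenite and 702, 666 and 492 with it. In cytosol it rose from 152, 73.1 and 131 CPM to 270, 248 and 203. Neither pair of groups overlapped, and the fall in one fraction and the rise in the other gave an interaction of -2.01 (SE 0.379, edgeR, adjusted p 0.000576). HS3ST5, which encodes a heparan sulfate sulfotransferase, followed the same course, with an interaction of -2.13, made of -0.62 in the granule fraction and 1.51 in cytosol. The lncRNAs LINC02112 (-2.36), LINC02197 (-2.11) and STEAP2-AS1 (-2.07) also fell in the granule fraction and rose in cytosol. LINC02112 was rare in cytosol, with 0.194 to 1.20 CPM without arsenite, so its size is imprecise. These genes, with SNHG1 and without MACF1, are the 12 named for the size of their fall, and being called in all 12 fits that left out 1 WDM library was a condition for naming them.

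**Figure D2:**
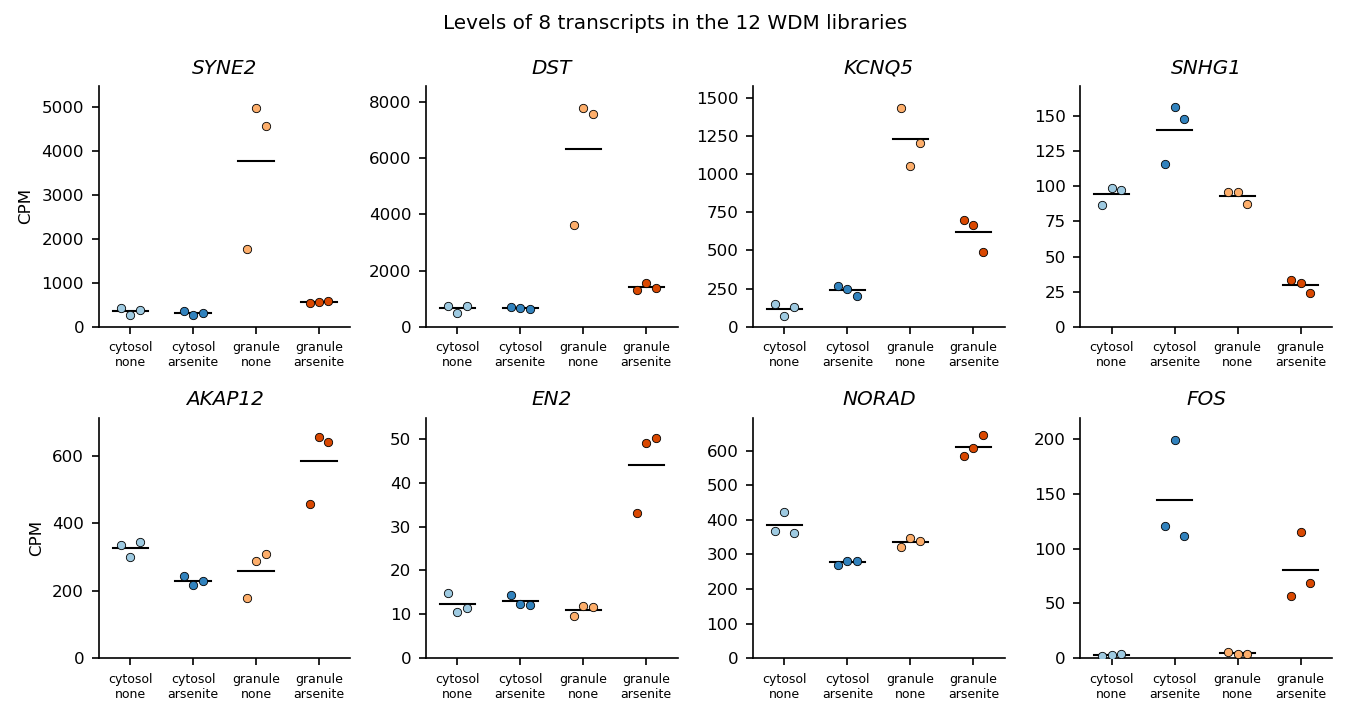
CPM (y axes, each from 0) of 8 transcripts in the 12 WDM libraries, by fraction and treatment, with a point for each library and a bar at the mean of 3. SYNE2, DST and KCNQ5 were high in the granule fraction without arsenite and lower with it, AKAP12, EN2 and NORAD were highest in the granule fraction with arsenite, and FOS rose in both fractions.

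Small-nucleolar-RNA (snoRNA) host genes carry snoRNAs in their introns, and their spliced transcripts are mostly short-lived. Of 12 tested, 10 had lower enrichment with arsenite and 0 higher, beside 16.5% and 7.66% of all genes. The median interaction was -1.19 and every value lay below 0. Over all genes the median was -0.17, and 10907 of 18141 lay below 0. Leaving out 1 WDM library gave 7 to 10 lower. SNHG1 (ENSG00000255717, chromosome 11, 62851984 to 62855953) had 96.1, 96.2 and 87.3 CPM in the granule fraction without arsenite and 33.4, 30.8 and 24.0 with it. In cytosol it rose from 86.6, 98.8 and 97.4 CPM to 116, 156 and 148. Granule over cytosol was 0.987-fold without arsenite and 0.21-fold with it, an interaction of -2.23 (SE 0.219, edgeR, adjusted p 3.37e-07). SNHG12 (-1.91), SNHG8 (-1.64), SNHG6 (-1.46) and GAS5 (-1.35) followed. GAS5 fell in the granule fraction from 148, 166 and 158 CPM to 65.2, 57.4 and 44.03, and its cytosol level was not called different.

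Ribosomal protein mRNAs, already scarce in the granule fraction without arsenite, became scarcer with it. Of 74 tested, 73 were granule-depleted without arsenite and 74 with it, beside 6403 and 6479 of all 18141 genes. Their interaction was lower for 57 and higher for 0, beside 16.5% and 7.66% of all genes. The median was -0.88 against -0.17 over all genes, and only RPL28 (0.28, not called) lay above 0. Of the 74, 72 fell in the granule fraction and 2 in cytosol, beside 25.8% and 3.79% of all genes. RPS12 had 54.8, 85.9 and 90.4 CPM in the granule fraction without arsenite and 21.9, 24.8 and 20.6 with it, and 485, 513 and 394 against 305, 357 and 382 in cytosol. The granule groups did not overlap, and granule over cytosol was 0.166 without and 0.0646 with arsenite, an interaction of -1.37 (SE 0.224, edgeR, adjusted p 0.000156). RPS3A (-1.49), RPL12 (-1.46) and RPS3 (-1.41) behaved likewise, with no call in cytosol. The number lower was 72 without granule replicate 1 of the group without arsenite and 39 without replicate 3 of that group, so these libraries move the count while the median stayed between -1.12 and -0.74 under all settings tried.

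Ribosomal protein mRNAs belong to the 5' terminal oligopyrimidine (TOP) class, whose transcripts begin with a C followed by an unbroken run of pyrimidines, through which LARP1 and mTOR signalling control their translation. TIA1 and its paralog TIAL1 are known to bind TOP mRNAs in starved cells. Start sites were read from RefSeq promoters (GRCh38.p14), and those of some members, not picked by rank alone, are shown because the class is defined by these letters. Each runs from 10 bases before the annotated start to the base 20 into the transcript, 5' to 3', with the pyrimidine run that begins at the start site in capitals.
RPS12: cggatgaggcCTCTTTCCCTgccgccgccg
RPS3: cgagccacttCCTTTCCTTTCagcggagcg
RPL12: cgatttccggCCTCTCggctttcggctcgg
RPS3A: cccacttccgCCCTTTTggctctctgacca
EEF1A1: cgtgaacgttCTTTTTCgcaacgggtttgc
SNHG12: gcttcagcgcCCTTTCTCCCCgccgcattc
SNHG1: gagattcgttCTCatttttctactgctcgt
PSMD14: gtgaacccggaagtgcttcgcggcggaggc
In genome order on each strand these windows are chr6:132814559-132814588 (plus strand, RPS12), chr11:75399508-75399537 (plus, RPS3), chr9:127451387-127451416 (minus, RPL12), chr4:151099618-151099647 (plus, RPS3A), chr6:73521013-73521042 (minus, EEF1A1), chr1:28581854-28581883 (minus, SNHG12), chr11:62855866-62855895 (minus, SNHG1) and chr2:161308415-161308444 (plus, PSMD14). The rule searched was a C at the start site and a run of at least 5 pyrimidines from it, on the gene's own strand. Of the ribosomal protein genes with a single entry, 38 of 49 (77.6%) held it, and so did 9 of 9 other TOP genes, 3 of 10 snoRNA hosts and 4 of 40 respiratory chain genes, against 4.07% of all 35116 promoters in the table. The proteasome gene PSMD14, shown as a contrast, lacks it, as did the other proteasome genes with an entry (0 of 20). The snoRNA host SNHG1, shown above, also lacks it, since its run from the start site is 3 pyrimidines. So does the snoRNA host GAS5, not shown, with a run of 0 pyrimidines from its annotated start. A match describes the annotated start only, and no start sites were measured.

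Most other TOP mRNAs moved in the same direction as the ribosomal protein mRNAs with smaller values. Of 17 tested, 7 were lower and 0 higher, beside 16.5% and 7.66% of all genes. Of the 17, 15 lay below 0, and the median was -0.64 against -0.17 over all genes. Those called lower include EEF1A1, which encodes translation elongation factor 1A (interaction -1.10), EEF1B2 (-1.13), EIF3E (-1.03) and EIF3H (-0.91). EEF1A1 fell in the granule fraction from 1372, 2057 and 2071 CPM to 608, 644 and 632, with no call in cytosol. EIF3E was not called with the length trend removed (-0.48).

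RNA polymerase III and mitochondrial transcripts had some of the lowest medians. RN7SL3 (chromosome 14, 49853616 to 49853914) is a copy of 7SL, the RNA of the signal recognition particle. It had 28.4, 32.3 and 34.4 CPM in the granule fraction without arsenite and 3.97, 3.59 and 3.24 with it. In cytosol it had 310, 306 and 193 CPM and then 192, 191 and 215. Its interaction was -2.71 (SE 0.248, edgeR, adjusted p 1.42e-07), and RN7SL1 had -1.83, but reads of these near-identical copies can be assigned to either. Of the 6 small structured RNAs tested these 2 were lower and 0 higher, beside 16.5% and 7.66% of all genes. All 15 mitochondrially encoded RNAs lay below 0, with a median of -1.77, but only MT-CO3 (-1.84, adjusted p 0.0149) and MT-CO1 (-1.24, adjusted p 0.0429) were called by edgeR. The share of mitochondrial RNAs called lower was thus below the 16.5% of all genes. Over all genes the median was -0.17, and 10907 of 18141 lay below 0. MT-CO3, which encodes a subunit of cytochrome c oxidase, had 204, 659 and 732 CPM in the granule fraction without arsenite and 102, 98.3 and 124 with it, against 274 to 466 CPM in cytosol. Replicate 1 lay far below the other two. Without it 7 mitochondrial RNAs were called lower and the median was -2.24, and without replicate 3 of the same group 0 were called and the median was -1.16. MT-CO3 was at -1.54 in the latter fit and at -1.74, also not called, with no filter on low counts. MT-CO1 was no longer called in 10 of the 12 leave-one-out fits. Summed over the 15 mitochondrial RNAs, the granule fraction had 1124, 3548 and 4426 CPM without arsenite and 867, 1059 and 1516 with it.

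Of 9 nuclear-retained lncRNAs tested, 7 were granule-enriched without arsenite and 6 with it, beside 6496 and 6586 of all 18141 genes. Their enrichment was lower with arsenite for 3 and higher for 0, beside 16.5% and 7.66% of all genes. MIR17HG (-1.50), FTX (-1.25) and KCNQ1OT1 (-1.19) passed the test. The list's median was -0.89, against -0.46 over all 3313 lncRNAs tested. KCNQ1OT1, an imprinted antisense RNA, had 97.5, 72.4 and 73.7 CPM in the granule fraction without arsenite and 110, 95.9 and 66.1 with it, while cytosol rose from 10.4, 7.37 and 10.1 CPM to 27.5, 24.7 and 18.8. For it the interaction came with a cytosol rise (log2 1.35) and no call in the granule fraction. MALAT1 had -0.89 (edgeR, adjusted p 0.0644). The count was 5 without cytosol replicate 1 of the group without arsenite or granule replicate 1 with arsenite, and FTX lost its call in 4 of the 12 fits (-0.98 without cytosol replicate 2 of the group without arsenite) and with the GC trend removed (-0.89). With the trend with transcript length removed, KCNQ1OT1 was at -0.29 and not called, 2 of the list were lower, and the list's median was -0.29.

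The mRNAs of the stress response itself did not move as a block. Of 25 immediate-early genes tested, 24 rose with arsenite in the granule fraction and 16 in cytosol, and 4 had higher and 2 lower enrichment. Over all genes, 7.66% had higher and 16.5% lower enrichment. FOS, an AP-1 subunit, rose in cytosol from 2.39, 3.10 and 3.57 CPM to 121, 199 and 112, and in the granule fraction from 6.04, 4.34 and 3.61 to 57.2, 115 and 68.3. The cytosol rise was the larger one (log2 5.52 against 4.13), so its interaction was -1.39 (SE 0.423, edgeR, adjusted p 0.0185), a call lost without granule replicate 1 of the group without arsenite (-1.19, adjusted p 0.0839). EGR1, a zinc-finger transcription factor, had an interaction of -1.02, with 1.86, 1.75 and 1.28 CPM in cytosol without arsenite and 198, 156 and 136 with it, and 6.81, 5.74 and 4.99 against 265, 323 and 309 in the granule fraction. In the opposite direction, the nuclear receptor gene NR4A1 (1.21), SRF (0.98), which encodes the serum response factor, MYC (0.91) and CCN1 (0.82) gained enrichment. NR4A1 had 9.21, 8.32 and 10.2 CPM in the granule fraction without arsenite and 30.5, 25.5 and 26.1 with it, and was not called in cytosol. The number higher was 7 without granule replicate 1 with arsenite and 2 without replicate 3 of that group. With the GC trend removed 7 were higher, and the list's median of 0.21 became -0.01. MYC lost its call without cytosol replicate 2 or granule replicate 3 with arsenite, EGR1 in 7 of the 12 leave-one-out fits (-0.82 without cytosol replicate 3 of the group without arsenite) and CCN1 in 6 (0.64 without replicate 1 of that group).

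For the next lists, the shares over all genes were 7.66% called higher and 16.5% called lower. Of 16 heat-shock and chaperone mRNAs tested, 0 were higher and 2 lower, a share lower that is below that of all genes. Among the 2 was UBB (-1.16), which encodes tandem copies of ubiquitin. The number lower was 7 without granule replicate 1 of the group without arsenite and 5 without granule replicate 2 with arsenite. Of 18 oxidative, metal and integrated-stress genes, SESN2 (0.57), which encodes an mTORC1 inhibitor, and GCLM (0.65), for a subunit of the enzyme that starts glutathione synthesis, were higher and 0 were lower. Both calls were lost in some fits that left out a library, SESN2 without cytosol replicate 3 of the group without arsenite or granule replicate 3 with it, and GCLM in 7. SESN2 was not called with the GC trend removed either (0.35).

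The mRNAs that gained most granule enrichment were of a different kind. AKAP12 (chromosome 6, 151239967 to 151358559), which encodes a scaffold for protein kinase A, had 180, 287 and 308 CPM in the granule fraction without arsenite and 457, 656 and 643 with it, and 337, 299 and 345 CPM against 244, 217 and 228 in cytosol. It went from 0.791-fold to 2.55-fold granule over cytosol, an interaction of 1.69 (SE 0.246, edgeR, adjusted p 4.86e-05). EN2, a homeobox gene, had 9.69, 11.9 and 11.6 CPM in the granule fraction and then 33.1, 48.9 and 50.2, while its cytosol level stayed between 10.6 and 14.9 CPM (interaction 1.90). Neither gene's granule groups overlapped. MAP1A, which encodes a microtubule-associated protein, rose in the granule fraction from 15.6, 21.0 and 22.0 CPM to 58.7, 109 and 81.4 (interaction 1.97).

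CHST14, PCDH1 and EMILIN3, also named for a gain, were below their cytosol level in the granule fraction without arsenite. CHST14, a dermatan sulfotransferase, went from 0.357-fold to 1.23-fold (interaction 1.78), PCDH1, a protocadherin, from 0.49-fold to 1.62-fold (1.72), and EMILIN3, an extracellular matrix glycoprotein, from 0.459-fold to 1.49-fold (1.70). EMILIN3 fell in cytosol as well as rising in the granule fraction, with log2 changes of -0.90 and 0.79. So did PCDH1 (-0.70 and 1.02) and BAIAP2-DT, a lncRNA also named for a gain (-0.76 and 1.30). PCDH1 and EMILIN3 were called granule-enriched with arsenite and CHST14 was not. LRRC3 (1.75), TINCR (1.68) and the lncRNAs BAIAP2-DT (2.06), CIRBP-AS1 (1.85) and HK2-DT (1.70) complete the set with ADSS1. ADSS1 had the highest value named, 2.53, and encodes the muscle-type adenylosuccinate synthase of purine synthesis. It had 1.44, 1.47 and 1.77 CPM in the granule fraction without arsenite and 10.3, 11.6 and 7.22 with it, against 1.01 to 1.53 CPM in cytosol. These 12 genes too were called in all 12 fits that left out 1 WDM library, by the rule that chose them. At least 10% of the exon length of MALAT1, SNHG6, SNHG8, ZFAS1, FTX, UBB, MIR17HG, GAPDH, KRT18, EMILIN3, RPS3A, CCND1 and NR4A1 lies opposite exons of another gene, and a smaller part of that of others, among them LINC02197, KCNQ5 and SPTBN1. In addition, CIRBP-AS1 and STEAP2-AS1 are antisense genes, and LINC02112, LMO7 and SNHG1 overlap a gene on their own strand. Since strand and overlap settings of the counting are not given, their values are uncertain.

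Among long transcripts usually described as rich in stress granules, 1 of 11 tested was higher and 1 lower, beside 7.66% and 16.5% of all genes. NORAD (ENSG00000260032, chromosome 20, 36045618 to 36051018), a cytoplasmic lncRNA that binds Pumilio proteins, had 323, 347 and 340 CPM in the granule fraction without arsenite and 585, 607 and 644 with it, and 369, 423 and 362 CPM against 271, 280 and 282 in cytosol. It went from 0.875-fold to 2.20-fold (interaction 1.33, SE 0.267, edgeR, adjusted p 0.000764), and neither pair of groups overlapped. MACF1, given above, was the one that fell. KMT2D, a histone methyltransferase gene, had 1.51 but wide spread in cytosol and was not called (edgeR, adjusted p 0.0657). All 11 were granule-enriched with arsenite and 10 without it, beside 6586 and 6496 of all 18141 genes. The list was chosen as granule-rich with earlier results of these data known, so that enrichment is no finding about it.

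Of 56 nuclear-encoded respiratory chain mRNAs, 18 were lower and 0 higher (median -0.51). ATP5F1C, a subunit of ATP synthase, led them at -1.47, falling in the granule fraction from 73.6, 91.5 and 93.9 CPM to 22.5, 24.6 and 26.3. Leaving out granule replicate 1 or 3 without arsenite moved that count to 34 or 11. Of 29 proteasome subunits 6 were lower and 0 higher (median -0.39). Leaving out that replicate 1 gave 15, leaving out granule replicate 2 with arsenite 10, and leaving out cytosol replicate 3 without arsenite or granule replicate 3 with it gave 3. With the GC trend removed only 1 was lower. The proteasome share called lower was near the 16.5% of all genes. Replication-dependent histones gave 14 lower of 41 and 0 higher (median -0.42), with 26 without granule replicate 1 of the group without arsenite 8 and 7 without its replicates 2 and 3, and 9 without cytosol replicate 3 of the cells without arsenite. Their copies share sequence, and their mRNAs lack a poly(A) tail, which a total-RNA library still captures. Of 15 glycolytic enzymes, GAPDH (-1.08) and ENO1 (-0.85) were lower and 0 higher, a share below that of all genes, and ENO1 lost its call in 5 fits that left out a library.

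mRNAs that enter the secretory route (27 tested, 4 higher, 2 lower, beside 7.66% and 16.5% of all genes) included TMED10 (0.92). This cargo receptor mRNA fell in cytosol and rose in the granule fraction. SEC61G (-1.12) and SSR4 (-0.90), small subunits of the translocon machinery, were lower, SSR4 not without granule replicate 2 or 3 of the group without arsenite. The number higher was 2 without granule replicate 1 of the group without arsenite, where 4 were lower and the list's median of 0.21 became -0.05, and 1 and 2 without granule replicates 2 and 3 with arsenite. Among 18 SR splicing factors and CLK kinases, 9 were lower and 1 higher (median -0.54). CLK4 (-1.34) fell in the granule fraction and rose in cytosol. CLK2 had 40.5, 51.5 and 53.7 CPM in the granule fraction without arsenite and 46.6, 45.8 and 49.5 with it, and rose in cytosol from 29.4, 35.3 and 30.0 CPM to 55.9, 53.6 and 62.1 (interaction -0.90). With the GC trend removed only 3 of these genes were lower, 2 were higher, and the median was -0.19.

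mRNAs for stress granule proteins were mixed, with 2 higher and 6 lower of 25, beside 7.66% and 16.5% of all genes. TIAL1, the paralog of TIA1, had 127, 99.1 and 109 CPM in the granule fraction without arsenite and 80.8, 74.5 and 64.4 with it, and rose in cytosol from 48.2, 32.7 and 44.1 CPM to 81.8, 70.3 and 61.3. Its ratio went from 2.68-fold to 1.03-fold, an interaction of -1.38 (SE 0.24, edgeR, adjusted p 0.000233). CELF1, an RNA-binding protein gene, was higher (0.70), and EWSR1 (-0.83) and TAF15 (-0.87), which encode RNA-binding proteins, were lower. The number lower was 3 without any one of 4 libraries (cytosol replicates 2 and 3 without arsenite, cytosol replicate 2 and granule replicate 3 with it) and 1 with the GC trend removed, where EWSR1 (-0.57) and TAF15 (-0.62) were not called, and the number higher was 1 without cytosol or granule replicate 1 of the cells without arsenite or granule replicate 3 with it. EWSR1 was not called with the length trend removed (-0.70). Of 34 P-body and decay factor mRNAs 3 were higher, among them AGO1 (0.89) and LSM14B (0.80), and 6 lower, among them CNOT2 (-0.87) and DCP1B (-0.82). Both shares of this list were near those of all genes, 7.66% higher and 16.5% lower. With the GC trend removed 6 were higher and 1 lower, CNOT2 (-0.43) and DCP1B (-0.44) no longer being called, and the median of -0.05 became 0.07. Without cytosol replicate 2 of the group without arsenite 3 were lower, and without granule replicate 1 with arsenite 5 were higher. Of 12 mRNAs with AU-rich elements, MYC, SLC2A1 (0.90, a glucose transporter gene) and CCND1 (0.65, cyclin D1) were higher and FOS lower. CCND1 lost its call in 5 fits that left out a library, and without granule replicate 3 with arsenite 1 of the list was higher.

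**Figure D3:**
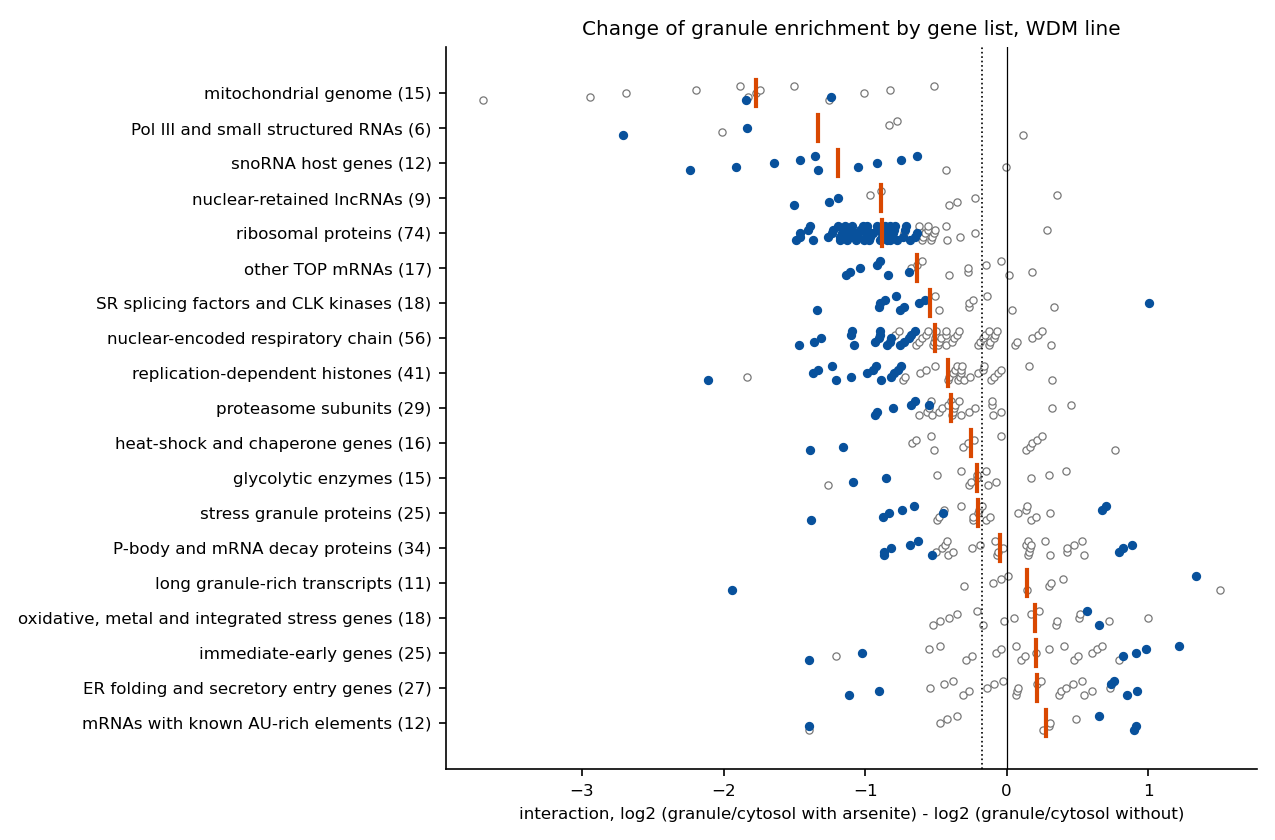
Interaction (x axis, log2 enrichment with arsenite minus without) of every tested member of 19 gene lists in the WDM line, filled where called and open where not, with a bar at each list's median and a dotted line at the median of all genes (-0.17). Mitochondrial RNAs, snoRNA hosts and ribosomal protein mRNAs lie almost wholly to the left, with medians of -1.77, -1.19 and -0.88, while the stress-response lists straddle 0.

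Gene span and base composition both moved with the interaction across genes, described here without a test because genes are not independent. In the decile of genes with the longest spans (at least 190564 bases from first to last base) the median interaction was -0.74, and 43.2% were called lower against 16.5% of all genes. That median came with a granule change of -0.39 and a cytosol change of 0.36. Among protein-coding genes alone the longest decile had a median interaction of -0.67. Spearman's rho between span and interaction was -0.20 over 18092 genes in the WDM line, and -0.20 in the WT line. With the GC trend removed, the WDM rho was -0.10 and the median of the longest decile -0.56. The relation with span was not steady, as the shortest decile was at -0.18 and the next at -0.01. Span includes introns, and transcript length went the other way. By length of the longest transcript, the decile of shortest transcripts had a median of -0.44 and that of the longest -0.16. Spearman's rho of that length with the WDM interaction was 0.13. lncRNAs had a median of -0.46, with 484 of 3313 lower and 70 higher, against -0.10 for protein-coding genes, with 2319 of 13584 lower and 1305 higher.

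The GC content of the longest transcript was a stronger correlate in the WDM line. From the decile with the lowest GC to the decile with the highest, the median interaction went from -0.47 to 0.20, and Spearman's rho was 0.34. In the WT line rho was -0.00073 and the end deciles had medians of -0.17 and -0.23. Genes with higher enrichment had a median GC of 53.3% and those with lower enrichment 42.2%, against 47.7% over all genes. The same quantity differed between libraries. As a measure of it, each gene's log2 level was taken against its mean over the 12 libraries of its line, and the median over the GC-poorest quintile of genes was subtracted from that over the GC-richest. This gave -0.25, -0.18 and -0.22 in the WDM granule libraries without arsenite and 0.17, 0.01 and 0.16 with it. It was between -0.03 and 0.11 in the 6 WDM cytosol libraries. In the WT granule libraries it was -0.10, 0.09 and -0.16 without arsenite and -0.32, -0.05 and 0.02 with it. With each library's GC trend removed, an alternative chosen after seeing the data, 3760 genes were called, 1687 higher and 2073 lower, so that 44.9% of the calls were higher against 31.7% as fitted. Of the 4386 genes, 2911 were still called in the same direction and 0 changed sign. All 24 genes named for their size were among those still called.

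**Figure D4:**
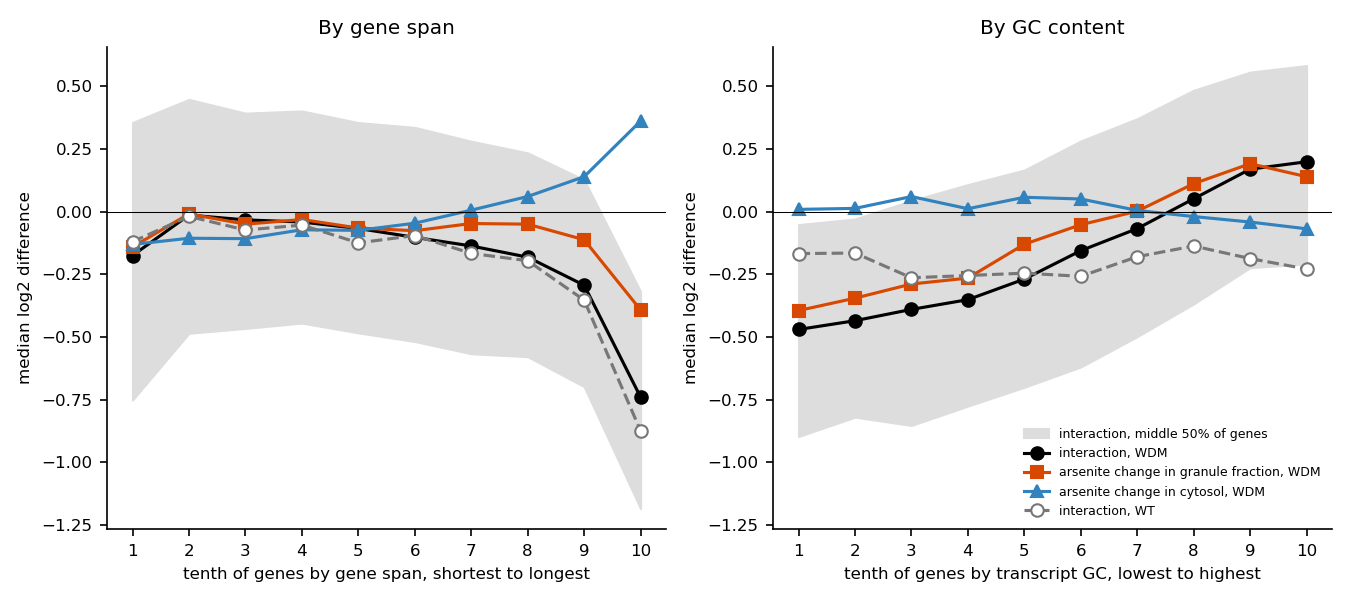
Median log2 difference (y axes) in deciles of the genes ordered by gene span (left) or transcript GC content (right), for the WDM interaction, its granule and cytosol components, and the WT interaction, with the middle 50% of genes shaded. The longest decile stands at -0.74 in the WDM line and -0.87 in the WT line, whereas the rise from -0.47 to 0.20 with GC is seen in the WDM line.

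The same interaction was computed in the WT line. It called 5704 genes (31.4%). The same direction was called in both lines for 2939 genes, which is 67.0% of the WDM calls and 51.5% of the WT calls, and opposite directions for 2. The lines share no library, and as a description their values over 18141 genes had a Pearson's r of 0.645 and a Spearman's rho of 0.678. The difference between the lines, tested as WDM interaction minus WT interaction with edgeR, called 0 genes (0.00%). By unadjusted p under 0.05 it had 1451 genes (8.00%), and DESeq2 called 0 with 1479 genes at unadjusted p under 0.05. The median 95% half-width of that difference, not adjusted for the number of genes tested, was 0.648 on the log2 scale for the genes called in WDM. Most genes named above had similar values in WT, such as SYNE2 (-2.29), SNHG1 (-1.99), AKAP12 (1.73), EN2 (1.73), NORAD (1.75) and RN7SL3 (-2.37).

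ADSS1 differed most between the lines among the named genes. In the WT granule fraction it had 3.25, 2.75 and 3.06 CPM without arsenite and 5.86, 9.80 and 3.96 with it, and in WT cytosol 0.69, 0.954 and 0.973 CPM and then 2.28, 1.99 and 2.09. Its WT interaction was -0.16, and the difference of 2.69 (SE 0.627, edgeR, adjusted p 0.604) did not pass over all genes. TINCR had 1.68 in WDM and 0.34 in WT, a difference of 1.33 with the same adjusted p. Of the lists, ribosomal proteins were lower for 57 genes in WDM and 31 in WT, respiratory chain genes for 18 and 6, and histones for 14 and 1, while secretory-route mRNAs were higher for 4 in WDM and 14 in WT. No member of these lists was called in the test of the difference, and counts on either side of a threshold do not show that the lines differ.

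**Figure D5:**
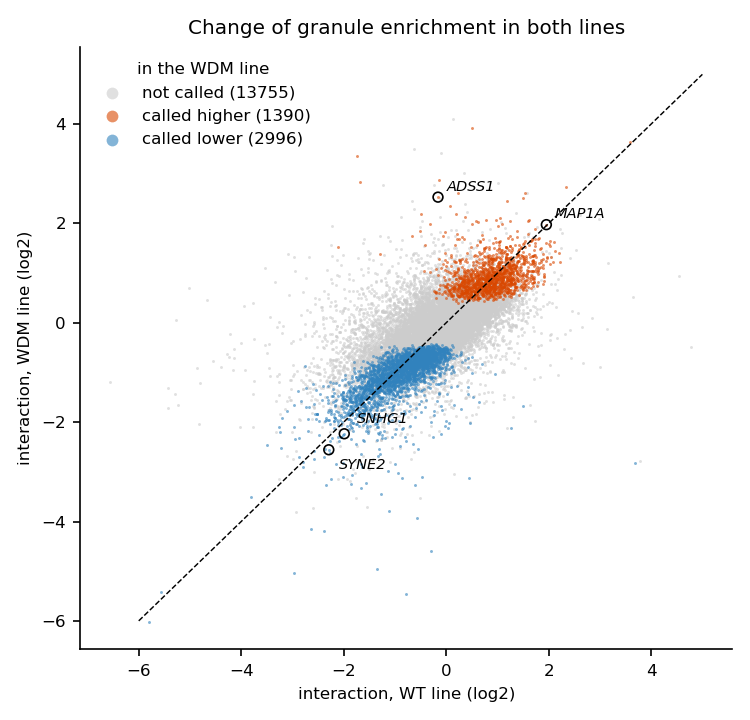
Interaction in the WT line (x axis) and in the WDM line (y axis) for the 18141 genes tested, coloured by the call in the WDM line, with the line of equality dashed and 4 named genes ringed. SYNE2, SNHG1 and MAP1A lie near the line of equality, and ADSS1 (2.53 in WDM, -0.16 in WT) lies off it.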

How the data were processed

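The authors deposited raw read counts per gene as 1 table with a column for each of 30 libraries, per the file headers. The libraries were rRNA-depleted stranded total RNA, per the labels' protocols. Trimmomatic, STAR, Picard, featureCounts and the genome build GRCh38 are named in the submitters' processing notes, while their versions, the strand setting and the handling of overlapping genes are not given in the sources used here. Genes were matched to GENCODE release 44 for names, span and GC content (60463 of 60664 identifiers). The deposited counts of the 24 tetracycline libraries (8 groups of 3) were fitted together with edgeR 4.0.16 in R 4.3.3, after filterByExpr (minimum count 10, minimum total 15) and TMM scaling, with a group-means model and the robust quasi-likelihood test. A gene was called at a Benjamini-Hochberg adjusted p under 0.05. Total counts ran from 5906167 to 27419145, and a count of 0 allows 3 counts (0.101 to 0.513 CPM). Named genes are the 12 largest changes in each direction with a symbol, annotated as protein-coding or lncRNA, a mean of at least 5 CPM in a WDM group, and a call in every fit that left out 1 WDM library. To these were added up to 4 members of each list by smallest p (any member for lists of up to 15 genes), and TIA1, TIAL1 and C2orf42. EGR1, CCN1 and RPL28 were named after their values were seen. The comparison, members and gene lists were chosen with earlier results of these data known. As alternatives, DESeq2 1.42.0 was run, and the edgeR fit was repeated with RLE scaling, with library size alone, without the low-count filter, with a replicate block, on the 12 WDM libraries only, with each library left out, and with offsets for the length trend. Offsets for the GC trend and fits of each fraction alone were added after seeing the data. The fit was checked on simulated counts. Figures used Python 3.11.15 and matplotlib 3.10.9. Some genes that meet the rule for named genes, or belong to a list, are not reported here by name.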

Additional observations from a re-analysis of the deposited data

How the results depend on the processing

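The number of genes whose granule enrichment changed in the WDM line, 4386 as fitted, was 3593 to 5319 under the other settings and 3134 to 4561 when 1 WDM library was left out, the fewest without granule replicate 3 with arsenite. The share of calls that were higher was 31.7% as fitted, 44.9% with the GC trend removed and 43.0% without the low-count filter. With the replicate number as a block 5319 genes were called for the interaction. The block also moved the number lower from 2 to 5 for heat-shock genes, 6 to 11 for proteasome subunits and 3 to 5 for nuclear-retained lncRNAs, and the number higher from 4 to 7 for both immediate-early genes and secretory-route mRNAs. The labels do not say what a number marks. Over the 18 same-numbered pairs of libraries in 6 pairs of groups, deviations from the group means correlated from -0.091 to 0.735, 13 above 0.1, and 10 library pairs matched their own number best. In 3 of the 6 pairs of groups all numbers were above 0.1, and in 1 of them, cytosol and granule fraction with arsenite, all matched their own number best. Not all pairs among the 4 groups of the interaction met this. The weakest count was that of arsenite over none in WDM cytosol: 1963 as fitted, 3046 with the replicate block, 3041 with the fraction fitted alone, and 426 to 2508 in leave-one-out fits, with 426 without cytosol replicate 2 of the group without arsenite, 814 without its replicate 3, and 698 and 960 without cytosol replicates 1 and 2 with arsenite. Statements that cytosol was not called therefore depend on those libraries; the cause was not tested. For lists, the median of the SR and CLK list moved from -0.54 to -0.19 with the GC trend removed, that of the nuclear-retained lncRNAs from -0.89 to -0.29 with the length trend removed, and that of the small structured RNAs from -1.33 to -1.70 without cytosol replicate 2 of the group without arsenite. No result changed sign as a call. The difference between the lines called 0 genes under every setting, with 704 at unadjusted p under 0.05 with the GC trend removed and 815 to 2585 in leave-one-out fits. Depth limits genes near 1 CPM, such as ADSS1 and LINC02112 in cytosol.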
